A study of Mus musculus with 20 samples.

Results

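The constitutive proteasome subunit genes were followed in the left ventricle of mice that ate 1 of 4 statins. The set took every gene of the array annotation whose symbol begins with Psma, Psmb, Psmc or Psmd and ends in a number, apart from the immunoproteasome genes Psmb8, Psmb9 and Psmb10. It held 36 genes of 18193 with a symbol of their own. Each gene was read from the probe set with its highest mean signal over 20 arrays. Of the 36 genes, 35 passed the filter on dim probe sets (a signal of 81.8). The exception was Psmb11, a catalytic subunit of cortical thymic epithelium, whose mean signal was 14.1. Psma8, the alpha subunit of germ cells, passed narrowly, at a mean signal of 98.0. The set covers 33 structural subunits and 3 chaperones of base assembly, Psmd5, Psmd9 and Psmd10.

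The proteasome degrades proteins marked with ubiquitin. Its core particle is a barrel of alpha and beta rings with the peptidase sites inside. The regulatory particle that caps it binds ubiquitin chains, removes them and, with a ring of ATPases, unfolds and feeds the substrate into the barrel. In heart muscle the complex turns over sarcomeric and signalling proteins, and its genes are known to be induced together when proteasome activity falls short.

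The animals were 20 male C57BL/6J mice that arrived at 6 weeks of age, had 2 weeks of acclimation and were then fed for 4 weeks. There were 5 groups of 4 mice with 1 array per mouse: standard chow alone (control), or the same chow with powdered tablets of pitavastatin at 4.5, pravastatin at 21.0, rosuvastatin at 10.9 or atorvastatin at 11.4 mg/kg/day. Statins inhibit the enzyme that makes mevalonate, and the comparisons ask how each affects the healthy heart. The doses differ among drugs, and statins are compared here only at these doses. All 10 cardiomyocyte markers passed the filter on dim probe sets, the 3 thymic epithelium markers did not, and of 4 atrial markers Myl7 and Sln did not. The median signal of an array ran from 41.7 in rosuvastatin 3 to 144 in atorvastatin 2, at 1 common scaled mean. Values below are log2(signal + 16), and differences are on that scale unless a fold is given. With 4 arrays per group, the median 95% interval of a member reached 0.24 to either side for a statin against control. The part of the array signal in these intervals was not tested.

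No member passed correction over all tested probe sets in any statin against control, in the mean of the statins against control, in the 6 pairs of statins or in the moderated F test over the groups (limma, Benjamini-Hochberg over 22518 probe sets, threshold 0.05). Over all tested probe sets, 0% passed in each comparison with control. Between pitavastatin and pravastatin 0.00888% passed, between pitavastatin and rosuvastatin 0.00444%, in the F test 0.00444%, and in the other pairs 0%. At an unadjusted p under 0.05, there was 1 member for pitavastatin (1.93% of all tested probe sets), 1 for pravastatin (3.93%), 1 for rosuvastatin (11%) and 2 for atorvastatin (4.57%). These were Psmd10 with pitavastatin, Psmd11 with pravastatin and with rosuvastatin, and Psmb7 and Psmd11 with atorvastatin. In the mean of the statins it was Psmd11, beside 3.05% of all. The moderated F test put 6.24% of all tested probe sets at an unadjusted p under 0.05 and, of the members, Psmd11 and Psmb7.

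The members lay slightly above control in pitavastatin hearts, in which 32 of 35 were higher (29 with quantile normalization, 35 after centring each array on its median signal, 32 after adjusting for that signal in the fit). Their median log2 difference was 0.096, or 1.07-fold, beside -0.0034 over all tested probe sets, of which 49% were higher. Among the 4112 probe sets at least as bright as the lower quartile of the members, 56.6% were higher. In pravastatin hearts 21 of 35 were lower (55% of all tested) with a median of -0.016, a majority that turned to 32 of 35 higher when each array was centred on its median signal. In rosuvastatin hearts 22 of 35 were higher (45.9% of all tested) with a median of 0.042, a majority that turned to 23 of 35 lower with the median signal as a covariate. In atorvastatin hearts 24 of 35 were lower (56.1% of all tested) with a median of -0.056, a majority that turned to 20 of 35 higher with centring. Of the 4112 bright probe sets, 50.3% were lower with pravastatin, 59.2% higher with rosuvastatin and 56.0% lower with atorvastatin. The medians of all tested probe sets were -0.022, -0.020 and -0.028 in the same order. Centring moved the median of all tested probe sets to 0.033, 0.080, 0.36 and 0.061 with pitavastatin, pravastatin, rosuvastatin and atorvastatin. The 4 comparisons share their control mice. Without control 1 the pitavastatin median was 0.050, with 30 of 35 higher. As deposited, 9 of 10 cardiomyocyte markers were higher than control with pitavastatin (median 0.12) and 0 of 10 with each other statin (medians -0.12, -0.17 and -0.12). The markers were not counted under the other scalings, and centring shifts all probe sets of an array alike. With pitavastatin 6 of 6 endothelial markers were higher (median 0.17), as were the 2 measured atrial markers (0.40), while 5 of 6 fibroblast markers were lower (-0.12). The atrial markers were also higher with rosuvastatin (0.30), and lower with pravastatin (-0.21) and atorvastatin (-0.19). All 6 fibroblast markers were lower with pravastatin (-0.12) and with atorvastatin (-0.16), and 4 of 6 were higher with rosuvastatin (0.087). The log2 of the summed signals of the cardiomyocyte markers ran from 18.2 to 18.5 in control and 18.3 to 18.6 in pitavastatin mice. It ran from 18.0 to 18.5 in pravastatin, 17.6 to 18.8 in rosuvastatin and 17.6 to 18.8 in atorvastatin mice. The part of these markers in the result was not tested, and in whole tissue fewer cells of a type and less RNA per cell cannot be told apart.

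**Figure D1:**
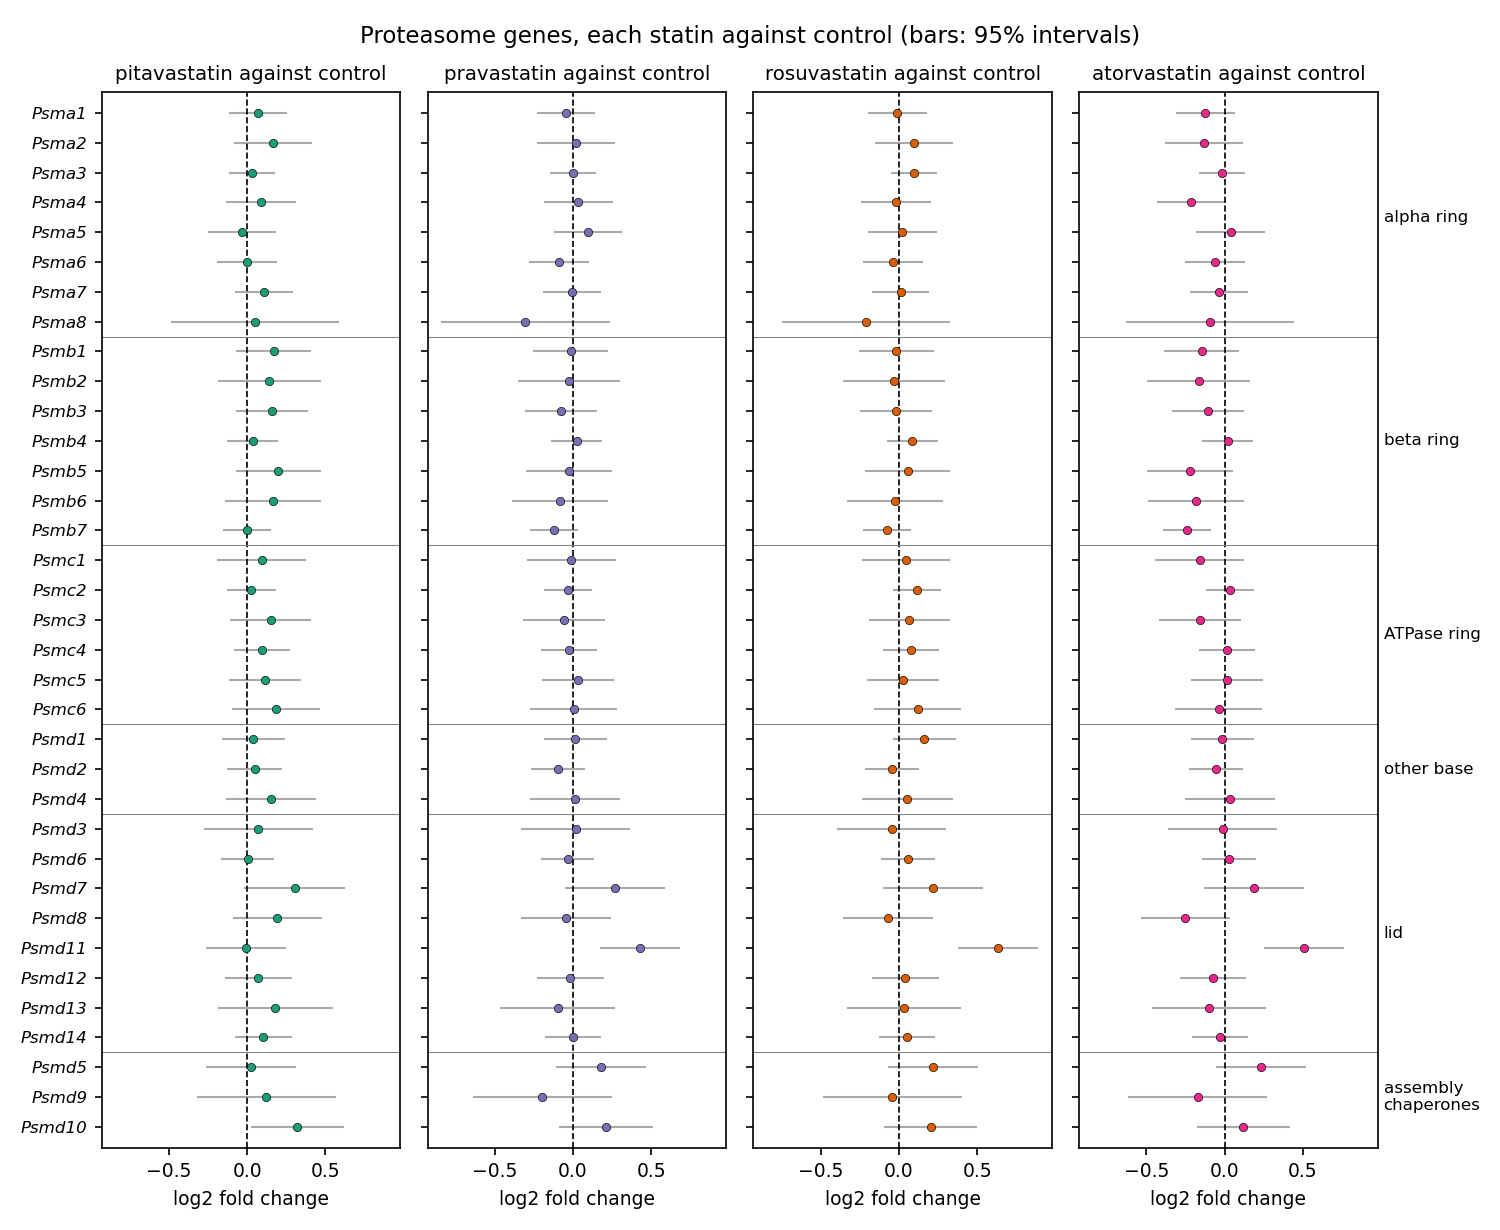
Log2 difference from control (horizontal axis) of each of the 35 tested proteasome genes, in a panel per statin, with 95% intervals from limma as bars and genes ordered by subcomplex. Most points sit right of 0 with pitavastatin (32 of 35) and left of 0 with atorvastatin (24 of 35, or 15 of 35 after centring each array on its median), with intervals that mostly cover 0; Psmd11 sits farthest right with pravastatin, rosuvastatin and atorvastatin.

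The 7 measured genes of the beta ring, which carries the peptidase sites, were all at or above control with pitavastatin, with a median of 0.16 (6 of 7 with quantile normalization). This was the largest median of the 5 structural subcomplexes in that comparison. With atorvastatin 6 of 7 were below control with a median of -0.17. The count was the same under each of the 3 other scalings, and the median was -0.078 with centring. With pravastatin and rosuvastatin the medians were -0.026 and -0.019, which centring turned to 0.076 and 0.36. Without control 1 the pitavastatin median of the beta ring was 0.050, with 6 of 7 higher, and the atorvastatin median was -0.27. Psmb5, the chymotrypsin-like subunit, was at 11.96, 12.76, 12.54 and 12.26 in the control mice and at 12.49, 12.59, 12.63 and 12.62 in the pitavastatin mice. It was at 12.39, 12.20, 12.37 and 12.47 with pravastatin, at 12.37, 12.54, 12.48 and 12.36 with rosuvastatin, and at 11.98, 11.97, 12.35 and 12.34 with atorvastatin. The controls spanned the whole range of the other groups, with control 1 lowest. The pitavastatin mice lay together and above every pravastatin and atorvastatin mouse. The differences from control were 0.20, -0.02, 0.06 and -0.22, each with an SE of 0.13 (adjusted p = 1.00, 0.998, 0.916 and 0.964).

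Psmb6, the caspase-like subunit, was at 11.93, 12.58, 12.65 and 12.28 in control mice and at 12.54, 12.46, 12.50 and 12.60 in pitavastatin mice. With pravastatin it was at 12.33, 12.10, 12.41 and 12.26, with rosuvastatin at 12.21, 12.32, 12.57 and 12.25, and with atorvastatin at 12.03, 11.83, 12.41 and 12.44. As for Psmb5, control 1 was the lowest control, and the pitavastatin mice lay above all pravastatin and atorvastatin mice. The differences from control were 0.17, -0.08, -0.02 and -0.18 (SE 0.15).

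Psmb7, the trypsin-like subunit, varied least of the beta ring, with a residual SD of 0.082 within groups. It was at 13.49, 13.32, 13.42 and 13.50 in control mice, at 13.41, 13.47, 13.44 and 13.40 with pitavastatin, and at 13.24, 13.50, 13.26 and 13.24 with pravastatin. With rosuvastatin it was at 13.35, 13.41, 13.28 and 13.38, and with atorvastatin at 13.28, 13.23, 13.10 and 13.15. The 4 atorvastatin mice lay below the 4 controls. Psmb7 was the 1 member whose atorvastatin and control groups did not overlap with atorvastatin lower, as did 0.573% of all tested probe sets. The difference was -0.24 (95% interval -0.40 to -0.09), or 0.845-fold, and did not pass (limma, adjusted p = 0.873). Over all alternative settings it lay between -0.28 and -0.15. The pitavastatin and control means were both 13.43.

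**Figure D2:**
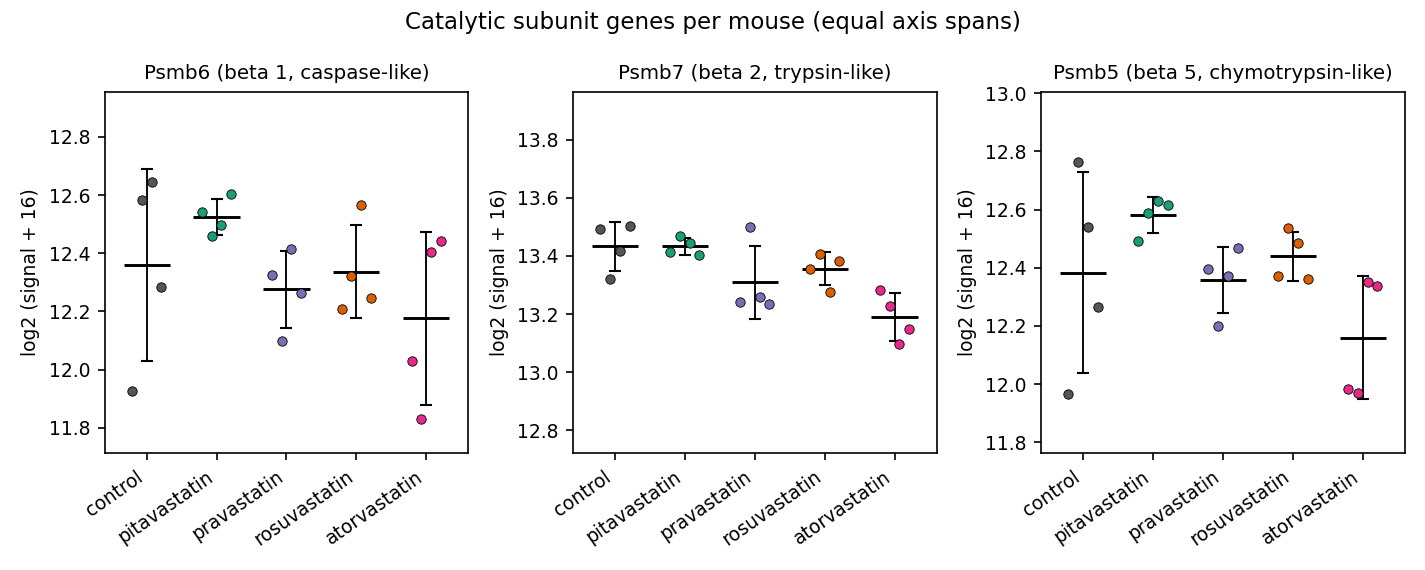
Log2(signal + 16) of the catalytic subunit genes Psmb6, Psmb7 and Psmb5 in each of 20 mice (points, in replicate order within a group), with group means (horizontal lines) and SD (bars, n = 4). Pitavastatin mice lie close together for all 3 genes, the controls of Psmb5 and Psmb6 spread widely with control 1 lowest, and the atorvastatin mice of Psmb7 lie below every control.

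The other beta subunits carry no peptidase site of their own. Psmb2 varied most of the 7, with a residual SD of 0.24. It was at 10.12, 10.80, 10.90 and 10.76 in control mice, so that control 1 again lay lowest, and between 10.70 and 10.91 with pitavastatin. Psmb1 and Psmb3 were 0.17 and 0.16 above control with pitavastatin and 0.15 and 0.11 below it with atorvastatin. The other 2 tested probe sets of Psmb1 gave 0.084 and 0.0013 with pitavastatin and 0.12 and -0.040 with atorvastatin. That of Psmb3 gave 0.27 and -0.041. On its brightest probe set Psmb4 lay between 0.02 and 0.09 above control in all 4 statin groups. Its other one gave 0.055, -0.0027, 0.043 and -0.080 with pitavastatin, pravastatin, rosuvastatin and atorvastatin. None of these passed.

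The alpha ring gates the barrel. The medians of its 8 genes against control were 0.060, -0.004, 0.001 and -0.077 with pitavastatin, pravastatin, rosuvastatin and atorvastatin, and centring moved the last 3 to 0.098, 0.38 and 0.011. Psma3 varied least of all members, with a residual SD of 0.078 and group means between 12.64 and 12.75. Psma4 was at 10.80, 11.29, 11.22 and 11.04 in control and 10.62, 10.94, 11.08 and 10.85 in atorvastatin mice, a difference of -0.21 (95% interval -0.44 to 0.007) with groups that overlap. Psma5 was 0.03 below control with pitavastatin and 0.10, 0.02 and 0.04 above it with the other statins. Psma6 was the 1 member whose pravastatin mice all lay below the controls, as in 1.03% of all tested probe sets, by 0.09 (adjusted p = 0.992); it is named because of this, after its values were seen. Psma1, Psma2 and Psma7 were 0.07, 0.16 and 0.11 above control with pitavastatin and 0.12, 0.13 and 0.04 below it with atorvastatin. Psma8 varied most, with a residual SD of 0.35 near the filter, and its difference of -0.30 with pravastatin had a 95% interval of -0.84 to 0.23 and was -0.14 without pravastatin 2.

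The base of the regulatory particle holds the 6 ATPases Psmc1 to Psmc6 and the scaffold and ubiquitin-binding subunits Psmd1, Psmd2 and Psmd4. With pitavastatin and with rosuvastatin all 6 ATPase genes were above control, with medians of 0.106 and 0.071 (for rosuvastatin 3 of 6 once the fit held the median signal). With pravastatin 4 of 6 and with atorvastatin 3 of 6 were below it, with medians of -0.018 and -0.013, which centring turned to 0.083 and 0.075. Psmc6 was 0.18 above control with pitavastatin on its brightest probe set, while its other 2 tested probe sets gave -0.21 and -0.06; it is named after its values were seen. Psmc2, the steadiest of the ring (residual SD 0.087), was at 12.58, 12.47, 12.54 and 12.43 in control and at 12.60, 12.70, 12.63 and 12.56 in rosuvastatin mice, a difference of 0.12 (95% interval -0.04 to 0.27). Psmc1 varied most (residual SD 0.20), from 11.24 to 11.81 among the controls. Psmc3 was 0.15 above control with pitavastatin and 0.16 below it with atorvastatin. Psmc4 and Psmc5 were 0.10 and 0.12 above control with pitavastatin and within about 0.07 of it in the other groups. Psmd1 and Psmd2, the large scaffolds, were 0.04 and 0.05 above control with pitavastatin. Psmd4, a ubiquitin receptor, was 0.15 above it and the most variable of the 3 (residual SD 0.20).

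In the lid, which removes ubiquitin chains, 7 of 8 genes were above control with pitavastatin (6 with quantile normalization or the covariate), and 1 gene stood apart with the other statins. Psmd11, a lid subunit known to raise proteasome assembly when overexpressed, was at 11.35, 10.87, 10.79 and 10.73 in control mice and at 11.11, 10.84, 10.98 and 10.79 in pitavastatin mice. It was at 11.47, 11.44, 11.39 and 11.14 with pravastatin, at 11.61, 11.57, 11.65 and 11.45 with rosuvastatin, and at 11.58, 11.25, 11.33 and 11.60 with atorvastatin. The rosuvastatin mice lay above every control, as in 1.87% of all tested probe sets. The pravastatin and atorvastatin mice lay above the other controls but not all above control 1. The pitavastatin mice lay among the controls and below all mice of the other 3 statins. The differences from control were -0.01, 0.43, 0.63 and 0.51 (SE 0.12), or 1.34-fold with pravastatin, 1.55-fold with rosuvastatin and 1.42-fold with atorvastatin. None passed (limma, adjusted p = 1.00, 0.778, 0.293 and 0.769; F test, adjusted p = 0.128).

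In the comparisons with control, the Psmd11 call turned on control 1. Without it the differences with pravastatin, rosuvastatin and atorvastatin were 0.56, 0.77 and 0.65, and all 3 passed (limma, adjusted p = 0.0477, 0.00439 and 0.0253), as did the F test (adjusted p = 0.00335). Over all alternative settings these adjusted p-values ran from 0.0222 to 1.00, from 0.00439 to 0.824 and from 0.00796 to 1.00. Psmd11 has 8 probe sets, 5 of them tested, and the value rests on 1 of them. That probe set has a mean signal of 2468 and the next brightest one of 2437. The second was at 11.15, 11.27, 11.24 and 11.04 in control, 11.32, 11.38, 11.44 and 11.15 in rosuvastatin and 11.54, 11.20, 11.34 and 11.36 in atorvastatin mice, so its groups overlap. Its differences from control were 0.06, 0.005, 0.14 and 0.18, in the order of the statins above. The 3 dimmer tested probe sets gave 0.19, -0.35 and 0.16 with rosuvastatin, and no Psmd11 probe set passed in any comparison with control. Why the probe sets differ was not tested.

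**Figure D3:**
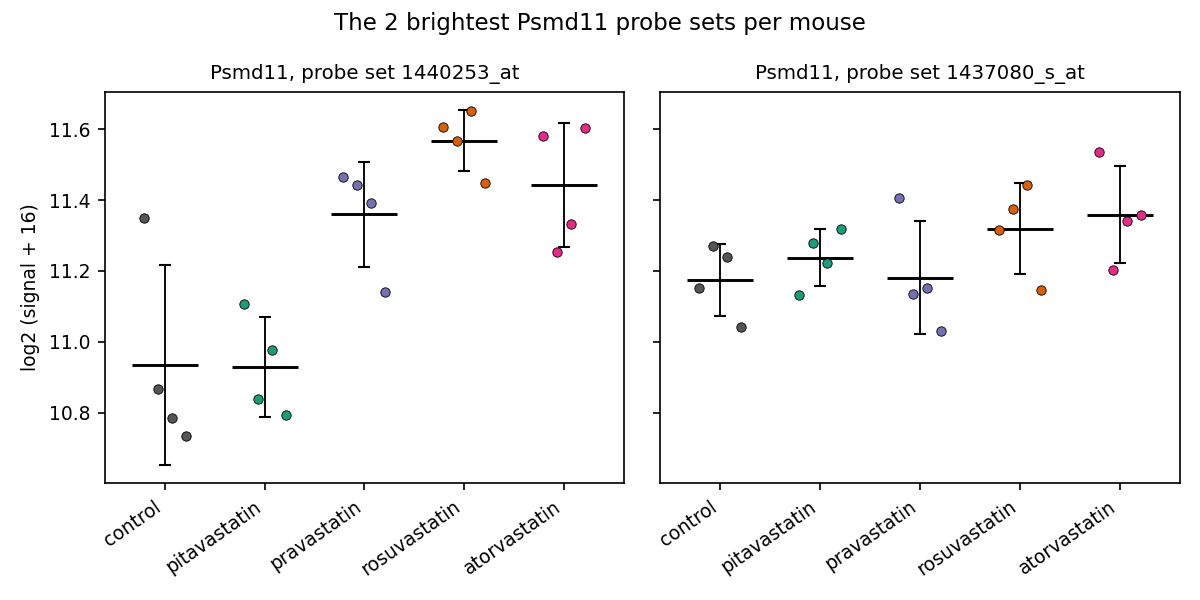
Log2(signal + 16) of the 2 brightest Psmd11 probe sets in each of 20 mice (points, in replicate order), with group means (lines) and SD (bars, n = 4). On the left the rosuvastatin mice lie at 11.45 to 11.65, above all controls, with control 1 (11.35) apart from the other controls; on the right the groups overlap.

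Because Psmd11 is the member that stood apart, the 250 bases before its RefSeq start site are shown (RefSeq, GRCm38.p6, 5′ to 3′). The capitals mark an ETS site, searched as CCGGAAG on both strands, here as its reverse complement close to the start.
Psmd11, chr11:80428365-80428614, plus strand: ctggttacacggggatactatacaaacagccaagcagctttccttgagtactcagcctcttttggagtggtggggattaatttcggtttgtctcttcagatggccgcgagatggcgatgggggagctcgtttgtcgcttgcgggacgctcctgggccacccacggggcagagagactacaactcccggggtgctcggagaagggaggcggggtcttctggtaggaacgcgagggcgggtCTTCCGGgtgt

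Psmd7, a scaffold of the deubiquitinating pair of the lid, had the highest structural value with pitavastatin. It was at 8.63, 9.28, 8.67 and 8.69 in control and at 9.09, 9.03, 9.14 and 9.23 in pitavastatin mice. The pitavastatin mice lay above 3 of 4 controls and below control 2. The differences from control were 0.30, 0.27, 0.22 and 0.19 with pitavastatin, pravastatin, rosuvastatin and atorvastatin (SE 0.15), and none passed. Without control 2 the pitavastatin difference was 0.46. Psmd8 was at 11.47, 11.88, 12.08 and 11.82 in control and at 11.71, 11.25, 11.73 and 11.56 in atorvastatin mice, a difference of -0.25 (95% interval -0.54 to 0.03), or -0.15 without atorvastatin 2; with pitavastatin it was 0.19 above control. Psmd6 was the steadiest of the lid (residual SD 0.10), with group means between 12.82 and 12.92. Psmd13 varied most (residual SD 0.26), from 8.71 in control 1 to 9.65 in control 3. Psmd14, the deubiquitinase itself, was 0.10 above control with pitavastatin and within about 0.05 of it otherwise. Psmd3 and Psmd12 were within about 0.07 of control in every group.

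The 3 chaperones of base assembly are not parts of the finished particle. Psmd10, also called gankyrin, was at 7.81, 7.98, 7.88 and 8.10 in control and at 8.32, 8.24, 8.27 and 8.24 in pitavastatin mice. Every pitavastatin mouse lay above every control, as in 0.924% of all tested probe sets. The difference was 0.32 (95% interval 0.02 to 0.62), or 1.25-fold, and did not pass (limma, adjusted p = 1.00). It was 0.21, 0.20 and 0.12 with pravastatin, rosuvastatin and atorvastatin. Psmd5 was 0.03 above control with pitavastatin and 0.18, 0.22 and 0.23 above it with the others, in the same order; it was 0.12 for rosuvastatin without rosuvastatin 4 and 0.11 for atorvastatin without atorvastatin 3. Psmd9 was the most variable (residual SD 0.31), with differences of 0.12, -0.20, -0.04 and -0.17; without pravastatin 4 the second was 0.0013.

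The 13 members with other probe sets above the filter gave a second reading. Of 19 such probe sets, 11 had the sign of the chosen one for pitavastatin, 12 for pravastatin, 15 for rosuvastatin and 11 for atorvastatin, and none passed. Their median difference with pitavastatin was 0.062.

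The statins were also compared with each other. Against atorvastatin 30 of 35 members were higher with pitavastatin, with a median of 0.14, or 28 of 35 with centring on the array median. Against pravastatin 32 of 35 were higher with a median of 0.11, or 24 of 35 with that centring. Against rosuvastatin 27 of 35 were higher with a median of 0.082. With that centring all 35 were lower, and the median of all tested probe sets was -0.30. Over all tested probe sets 55.5%, 55.9% and 57.8% were higher, with medians of 0.033, 0.034 and 0.047. The 3 comparisons share the pitavastatin mice. At an unadjusted p under 0.05 there were 11 members against atorvastatin (12.2% of all tested probe sets), 2 against pravastatin (8.64%) and 1 against rosuvastatin (11.7%). Between pravastatin and rosuvastatin there were 0 (3.19%), between pravastatin and atorvastatin 1 (3.11%) and between rosuvastatin and atorvastatin 2 (5.49%).

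Rosuvastatin and atorvastatin hearts were set side by side as well: 31 of 35 members were higher with rosuvastatin (46.3% of all tested probe sets), with a median of 0.11. Of the 4112 probe sets at least as bright as the lower quartile of the members, 63.6% were higher, with a median of 0.040. The count of members was 29 with quantile normalization, 35 with centring and 25 once the fit held the median signal. All 7 beta ring genes were higher with rosuvastatin under all 4 scalings, with medians of 0.14 as deposited, 0.093 with quantile normalization, 0.43 with centring and 0.049 with the median signal in the fit. Without atorvastatin 2 the median over the members was 0.040, with 24 of 35 higher. Between pravastatin and rosuvastatin 26 of 35 were lower with pravastatin (45.2% of all and 59.8% of the bright ones), with a median of -0.054. That majority turned to 18 of 35 higher with the median signal in the fit. Between pravastatin and atorvastatin 25 of 35 were higher with pravastatin (51.4% of all and 57.9% of the bright ones), with a median of 0.031. Without atorvastatin 2 the count was 13 of 35 and the median -0.019.

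All 4 pitavastatin mice lay above all 4 atorvastatin mice in 8 of 35 members, as in 3.81% of all tested probe sets. They were Psma1, Psma4, Psma7, Psmb5, Psmb6, Psmb7, Psmc3 and Psmd8. Psmd11 was the 1 member with the opposite separation, as in 3.92%. At an unadjusted p under 0.05, 10 members were higher and 1 lower, beside 5.95% and 6.26% of all tested probe sets. Psmd8 differed by 0.44 (95% interval 0.16 to 0.73) and Psmb5 by 0.42 (0.15 to 0.69), and neither passed (limma, adjusted p = 0.286 and 0.287). The beta ring had the largest median of the subcomplexes, 0.31, with 7 of 7 higher. Without atorvastatin 2 the median over the members was 0.088.

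Against pravastatin the pitavastatin mice also lay apart in 8 members, as in 4.48% of all tested probe sets. They were Psma6, Psmb1, Psmb3, Psmb5, Psmb6, Psmc3, Psmd8 and Psmd13, and 1, Psmd11, was separated the other way (5.44%). Each was read from its brightest probe set. On its other tested probe set Psmd13 was 0.017 above control with pitavastatin and 0.091 with pravastatin. In that order the others of Psmb1 gave 0.084 and 0.053, and 0.0013 and 0.0024. That of Psmb3 gave 0.27 and 0.0037, and those of Psma6 gave 0.12 and -0.022, and -0.093 and -0.096. For Psmd11 the 4 other tested probe sets gave 0.057, 0.19, -0.049 and -0.29 for pitavastatin against pravastatin. Psmb6 differed by 0.25 (adjusted p = 0.642) and Psmb3 by 0.23 (adjusted p = 0.568) in limma. Against rosuvastatin no member was separated with pitavastatin higher (3.79% of all), and Psmd11 was separated with pitavastatin lower (4.01%), by 0.64 (95% interval 0.38 to 0.89; adjusted p = 0.114). Genes in these lists that were not chosen by the rule on named genes were named after their values were seen. Among the other pairs, rosuvastatin and atorvastatin were separated in 1 member, Psmb5, with rosuvastatin higher by 0.28 (1.05% of all tested probe sets). Pravastatin against rosuvastatin and against atorvastatin gave no separated member in either direction, beside 1.23% higher and 0.981% lower of all tested probe sets in the first pair and 1.18% and 0.786% in the second; the smallest unadjusted p were those of Psmc2 (-0.15) and Psma4 (0.25), and neither passed.

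Per mouse, the mean deviation of the 35 members from each member's own mean was 0.057, 0.096, 0.083 and 0.091 in the pitavastatin mice, an SD of 0.017. It was -0.18, 0.096, 0.057 and -0.062 in control mice (SD 0.12). It was 0.058, -0.067, 0.010 and -0.096 with pravastatin (SD 0.070), -0.043, 0.069, 0.14 and -0.039 with rosuvastatin (SD 0.088), and -0.094, -0.23, 0.043 and 0.010 with atorvastatin (SD 0.12). The pitavastatin mice lay within a narrow range, above every atorvastatin mouse, while control 2, control 3, pravastatin 1 and rosuvastatin 2 lay inside that range and rosuvastatin 3 (0.14) above it. Atorvastatin 2 had 32 of 35 members below their own mean and control 1 had 27 of 35. Atorvastatin 2 also had the highest median array signal, while control 1, at 97.8, did not stand apart in it. The part of the array in these values was not tested. In rosuvastatin 3, the dimmest array, the lid lay 0.31 above its mean.

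**Figure D4:**
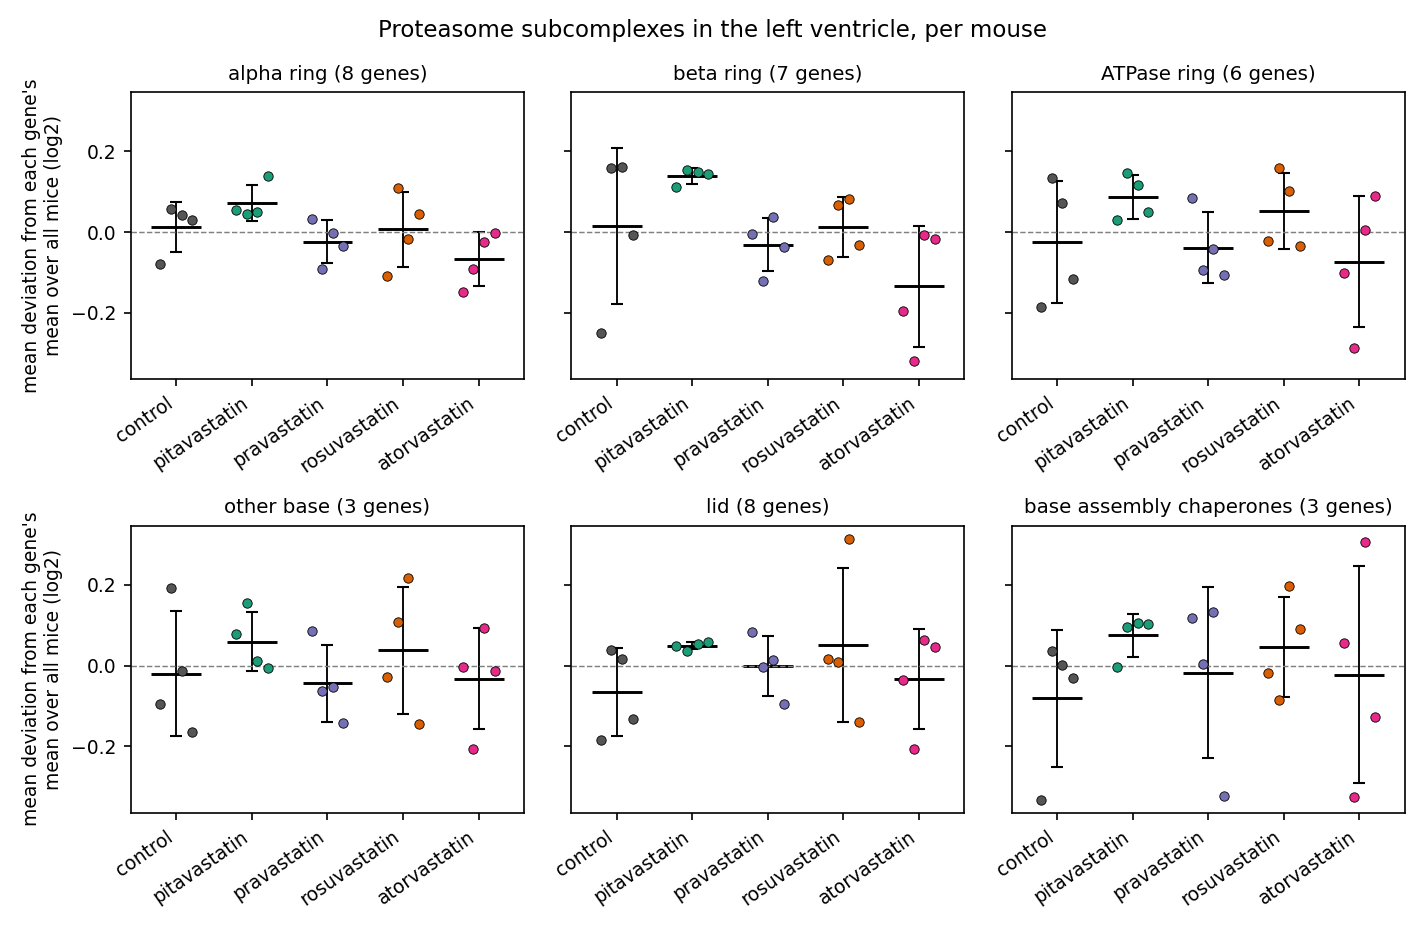
Mean deviation (log2) of the genes of each proteasome subcomplex from each gene's mean over all mice, for each of 20 mice (points, in replicate order), with group means (lines) and SD (bars, n = 4). In the beta ring the pitavastatin mice lie between 0.11 and 0.15, while control 1 (-0.25) and atorvastatin 2 (-0.32) lie lowest; in the lid rosuvastatin 3 lies highest (0.31).

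The immunoproteasome subunits Psmb9, Psmb10 and Psmb8 take the places of Psmb6, Psmb7 and Psmb5 in cells exposed to interferon. Psmb9 was 0.35 above control with pitavastatin and 0.32 below it with atorvastatin, Psmb8 was 0.35 above and 0.16 below it, and Psmb10 0.22 above and 0.08 below it. The log2 difference between each pair of genes was compared per mouse. Relative to control, Psmb9 minus Psmb6 was 0.18 higher with pitavastatin, Psmb10 minus Psmb7 was 0.22 higher and Psmb8 minus Psmb5 was 0.15 higher. Without control 1 the last 2 were 0.079 and 0.087, and without pitavastatin 2 the first was 0.11. None of the 12 comparisons over the 4 statins passed a two-sided exact permutation test of 4 against 4 mice, whose smallest p is 0.0286. The smallest p was 0.143 for Psmb9 minus Psmb6 with pravastatin (0.19 higher), and the smallest adjusted p was 0.754 over the 12 tests.

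Of the genes that act with the proteasome, 30 of 40 listed were measured and none passed in any comparison (limma). Against control, an unadjusted p under 0.05 was reached by 1 for pitavastatin (1.93% of all tested probe sets) and 0 for pravastatin (3.93%). It was reached by 2 for rosuvastatin (11%) and 1 for atorvastatin (4.57%). The medians of the log2 differences of the measured genes from control were 0.027 for pitavastatin, 0.051 for pravastatin, 0.11 for rosuvastatin and -0.006 for atorvastatin. With pitavastatin the 4 measured shuttle factors, which carry ubiquitinated proteins, were all below control (median -0.062), and 4 of 5 chaperones of core assembly were above it (median 0.15). Of 4 activators and inhibitors 3 were above it (median 0.042). The transcription factors that drive the subunit genes, Nfe2l1 and Nfe2l2, were within about 0.08 and 0.13 of control in every group. Syvn1, a ubiquitin ligase of the endoplasmic reticulum, was at 8.38, 8.76, 8.78 and 8.64 in control and at 8.16, 8.28, 7.97 and 8.11 in atorvastatin mice. The atorvastatin mice lay below every control, as in 0.573% of all tested probe sets, by 0.51 on average. The difference did not pass (limma, adjusted p = 0.769). Uba6, a ubiquitin-activating enzyme, was 0.23 below control with pitavastatin, with groups that did not overlap, as in 0.764% of all tested probe sets (adjusted p = 1.00), and Rad23b, a shuttle factor, was 0.21 above it with rosuvastatin (adjusted p = 0.452). In the mean of the statins the largest value in either direction of each list was that of Psmb8 at 0.12, Psmf1 at -0.06, Psmg4 at 0.14, Uchl5 at 0.14, Rad23b at 0.09, Syvn1 at -0.18 and Uba6 at 0.04.

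The sequences around the start sites of the subunit genes were searched for 10 motifs. RefSeq windows of 250 bases before to 50 after the start were at hand for 29 members (31 windows, with 2 genes having 2 each), and for all genes together 32851 windows. The median GC content was 56.7% for the members and 52.7% for all windows. The ETS site CCGGAAG was in 35.5% of the member windows, those of Psma6, Psmc1, Psmc2, Psmc6, Psmd2, Psmd4, Psmd6, Psmd11, Psmd12 and Psmd13, in 8.86% of all windows and in 14.5% of the windows with a GC content of at least 53%. The GC box GGGCGG was in 58.1% of member windows, 35.7% of all and 63.5% of those GC-rich ones. A nuclear respiratory factor site was in 19.4% of member windows, 4.6% of all and 8.54% of the GC-rich ones, and a YY1 site, AAGATGGC, in 9.68%, 2.75% and 3.55%. In the same order, the CCAAT box was in 38.7%, 37.4% and 34.3%, the TATA box TATAAA in 9.68%, 13.6% and 4.94%, and the E-box CACGTG in 6.45%, 7.15% and 9.78%. Neither the cyclic AMP response element TGACGTCA nor the sterol response element matched a member window, beside 1.79% and 0.0913% of all windows and 2.83% and 0.0793% of the GC-rich ones. Both strands were searched and motifs may overlap. These matches are descriptions of the letters and not sites of binding.

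The core of the antioxidant response element, TGACNNNGC, is the letter pattern bound by the factors Nfe2l1 and Nfe2l2. It was in 16.1% of the member windows, those of Psmb5, Psmb6, Psmc6, Psmd9 and Psmd12, in 12.4% of all windows and in 14.7% of the GC-rich ones. Psmb5 is shown as a catalytic subunit that separated pitavastatin from pravastatin and atorvastatin mice, and Psmd12, a lid subunit, as a window that holds both this core and an ETS site. Matches are in capitals, on either strand (RefSeq, GRCm38.p6, the 250 bases before the start in the promoter table, 5′ to 3′).
Psmb5, chr14:54617996-54618245, minus strand: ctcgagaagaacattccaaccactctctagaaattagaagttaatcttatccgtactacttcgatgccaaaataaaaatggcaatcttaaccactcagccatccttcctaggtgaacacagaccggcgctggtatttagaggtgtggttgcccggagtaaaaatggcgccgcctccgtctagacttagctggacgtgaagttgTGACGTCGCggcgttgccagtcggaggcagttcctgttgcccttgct
Psmd12, chr11:107479278-107479527, plus strand: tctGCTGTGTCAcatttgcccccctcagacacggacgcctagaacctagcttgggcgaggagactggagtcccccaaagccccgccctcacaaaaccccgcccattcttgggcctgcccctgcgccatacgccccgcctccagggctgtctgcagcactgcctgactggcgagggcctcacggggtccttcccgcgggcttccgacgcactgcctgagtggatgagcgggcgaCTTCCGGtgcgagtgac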

How the data were processed

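RNA from the left ventricle of 20 mice was measured on 1 Affymetrix mouse array per animal. The authors deposited 1 linear signal intensity per probe set and array, made with MAS5 per the submitters' processing notes; the trimmed mean of each array was the same, 500, from the values. The values were taken as log2(intensity + 16). Of 45037 probe sets without the 64 control probe sets, the brighter 50% by mean log2 value (22518) were tested in limma 3.58.1 (R 4.3.3) with 1 mean per group, a trended prior and Benjamini-Hochberg adjustment over all tested, at a threshold of 0.05. The fit was tested on simulated data. The labels do not say that the mice were kept or processed apart, so p-values measure the spread between these arrays. A gene was read from its probe set with the highest mean signal.

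Named by rule were the members with the 2 highest and 2 lowest differences from control, the smallest p of a comparison, and the catalytic subunits. The rule also took the steadiest and the most variable of each subcomplex and those below the filter. The other members were named outside this rule. Of the associated genes, the largest in each list was named. The members and lists were chosen with earlier results of these data known. Alternatives were scaling (quantile, median centring, the median signal as a covariate), pseudocounts of 1 and 64, no filter, no trend, a replicate block, the mean over probe sets and each array left out. Array annotation and RefSeq (GRCm38.p6) gave symbols and promoters; Psma8, Psmb1, Psmb2, Psmb7, Psmc3, Psmd3 and Psmd7 have no window here.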

Additional observations from a re-analysis of the deposited data

Results flagged for a closer look

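In 9 of 135 groups of 4 mice, 1 mouse lay far from the other 3 relative to the range of its group. Chance gives about 1 in 20 such groups. Psmd7 was at 9.28 in control 2, with the other controls between 8.63 and 8.69, and Psmd2 was at 11.88 in the same mouse, with the others between 11.62 and 11.64. In rosuvastatin 3, the array with the lowest median signal, Psmb2 was at 10.86 (others 10.52 to 10.54) and Psmd13 at 9.82 (others 9.19 to 9.28). With pravastatin, Psmb7 was at 13.50 in mouse 2 (others 13.24 to 13.26) and Psmc1 at 11.78 in mouse 1 (others 11.38 to 11.41). Psma8 was at 7.16 in atorvastatin 2, the array with the highest median signal (others 6.67 to 6.74). Among pitavastatin mice, the mean deviation of the alpha ring was 0.14 in mouse 4 (others 0.045 to 0.055), and that of the assembly chaperones was -0.0037 in mouse 1 (others 0.096 to 0.10).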

How the results depend on the processing

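No called direction was reversed, since no member was called. Median centring gave members' medians of 0.086 for pravastatin, 0.42 for rosuvastatin and 0.16 for the mean of the statins against control, as it moved all probe sets. Without control 1, Psmd11 was called (1 member each) for pravastatin, rosuvastatin, atorvastatin and the mean of the statins against control, for pitavastatin against rosuvastatin and in the F test. Over the 20 omissions of 1 array, counts of called members ran from 0 to 1. The medians against control ran from 0.050 to 0.15 for pitavastatin, -0.079 to 0.024 for pravastatin, -0.029 to 0.076 for rosuvastatin, -0.090 to -0.0023 for atorvastatin and -0.048 to 0.049 for the mean of the statins. The lowest rosuvastatin median was the one without control 1.

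Leaving out control 1, rosuvastatin 3 and atorvastatin 2 together, a choice made after seeing the data, gave 1 call (Psmd11) in the same comparisons and in pitavastatin against atorvastatin, and a rosuvastatin median of -0.070. Reading each gene from the probe set with the highest mean log2 value, also chosen after seeing the data, changed only Psmd11, to 0.14 with rosuvastatin; the cause was not tested. The labels do not say whether replicate numbers pair the mice. Of 40 same-numbered pairs, 19 correlated above 0.1 (-0.54 to 0.69), with a median of 0.079 beside -0.038 for other pairs. Of 20 arrays, 7 were closest to their own number. These correlations cannot settle whether arrays of the same number were handled together. A replicate block gave 1 call in pitavastatin against rosuvastatin and 1 in the F test, both Psmd11 (limma, adjusted p = 0.0317 and 0.0455). Groups of 4 arrays limit the precision, and Psma8 lies near the filter.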
